A study of Mus musculus with 3 samples.

Results

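A set of 9 genes was described here: the regulators of the ATF4 and CHOP pathway Atf4, Atf5, Cebpg, Cebpb, Ddit3, Atf3, Ppp1r15a, Nupr1 and Chac1. They were chosen by gene symbol, as the probe sets annotated with each symbol. Of the 9 genes, 7 had a probe set of their own and 2, Ddit3 and Atf5, lay on probe sets that name another gene too. They were set against 18820 genes with a probe set of their own. The values come from RAW264.7 cells, an established mouse macrophage line, exposed to 500 µM of a single fatty acid for 6 hours. The fatty acid was palmitate, which is saturated, elaidate, which is trans monounsaturated, or oleate, the cis isomer of elaidate. Each was bound to fatty acid-free albumin (BSA) at a ratio of 2 to 1, after solution in ethanol and potassium hydroxide. There was 1 array for each of the 3 fatty acids and none of cells without fatty acid was analysed here. Differences therefore have no replicate check, no interval and no p-value, and the order of values that lie close together is not resolved.

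The integrated stress response is the pathway these genes belong to. Kinases that sense stress phosphorylate the translation factor eIF2alpha, which slows protein synthesis in general but favours translation of ATF4 messenger RNA. ATF4 is a basic leucine zipper (bZIP) transcription factor that binds DNA with partners such as the C/EBP proteins and switches on genes of amino acid supply, of further stress factors such as CHOP (gene Ddit3), and of feedback. Saturated fatty acids are known to provoke endoplasmic reticulum stress in cultured macrophages. The arrays measure RNA, so phosphorylation and ATF4 protein were not measured.

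All 10 macrophage markers examined passed the filter on low values used for all genes, a mean log2 value of at least 4.14, while 3 of 22 markers of fibroblasts, lymphocytes, epithelium, endothelium, adipocytes and hepatocytes did. The log2 values of the macrophage markers summed to 95.6 for palmitate, 99.5 for elaidate and 100.6 for oleate, and the 22 others to 69.2, 69.0 and 69.0. With palmitate, 8 of the macrophage markers read lower than with oleate and 2, Cd68 and Ptprc, read the same. Of the 9410 genes past the filter, 3459 read lower and 3041 the same, and 1.22% were at least 2-fold lower. The drop of the markers was uneven: Mertk, at 5.57 with palmitate and 7.67 with oleate, was the only marker past 2-fold, while Spi1 differed by -0.10. The part of these lower marker values in the results below was not tested. The cells are an established line, not a tissue of mixed types, and in bulk RNA a shift in some cells and a shift in all cannot be told apart. The arrays themselves had medians of 3.61 (palmitate), 3.58 (elaidate) and 3.57 (oleate) over their 35556 probe sets. All 9 regulators lay above the filter on every array.

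The promoters of 4 genes are shown because they were the ones among the 9 genes in which a C/EBP-ATF composite element or a full cyclic AMP response element was found before the start of the gene. The sequences are the 250 bases before the annotated start in RefSeq, build GRCm38.p6, written 5′ to 3′ on the strand of the gene. Capitals mark the composite element in Atf3, Nupr1 and Chac1, read here as its reverse complement, and the cyclic AMP response element in Ppp1r15a. The regions are chr1:191183334-191183583 (minus strand) for Atf3, chr7:126625471-126625720 (minus strand) for Nupr1, chr2:119350992-119351241 (plus strand) for Chac1 and chr7:45526269-45526518 (minus strand) for Ppp1r15a.
Atf3: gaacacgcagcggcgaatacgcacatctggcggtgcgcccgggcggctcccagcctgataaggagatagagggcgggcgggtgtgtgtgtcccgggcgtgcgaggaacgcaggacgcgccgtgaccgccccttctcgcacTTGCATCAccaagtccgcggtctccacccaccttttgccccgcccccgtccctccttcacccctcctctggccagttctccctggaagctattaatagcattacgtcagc
Nupr1: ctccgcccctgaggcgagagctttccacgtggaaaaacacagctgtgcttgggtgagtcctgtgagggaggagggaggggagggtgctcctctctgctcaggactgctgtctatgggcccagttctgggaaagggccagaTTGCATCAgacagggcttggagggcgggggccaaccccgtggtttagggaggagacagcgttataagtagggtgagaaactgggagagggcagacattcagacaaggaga
Chac1: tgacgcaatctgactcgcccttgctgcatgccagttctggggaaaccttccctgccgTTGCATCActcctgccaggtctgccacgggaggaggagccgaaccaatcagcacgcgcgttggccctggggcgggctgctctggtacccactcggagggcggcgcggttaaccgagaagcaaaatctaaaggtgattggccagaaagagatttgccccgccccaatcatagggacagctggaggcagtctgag
Ppp1r15a: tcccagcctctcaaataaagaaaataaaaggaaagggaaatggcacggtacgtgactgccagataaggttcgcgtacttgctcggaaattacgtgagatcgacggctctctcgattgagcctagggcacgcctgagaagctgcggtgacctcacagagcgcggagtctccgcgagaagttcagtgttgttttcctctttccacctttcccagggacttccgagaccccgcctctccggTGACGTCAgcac

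The composite element, searched as TGATGNAA on both strands, joins a part bound by ATF factors to one bound by C/EBP factors and is the kind of element through which ATF4 acts with a C/EBP partner. The 3 matches were the same 8 letters, TTGCATCA, lying 110 to 103 bases before the start in both Atf3 and Nupr1 and 193 to 186 bases before it in Chac1. In the window of 250 bases before to 50 bases after the start, 3 of the 9 regulators held the element, against 1219 of 27025 genes with a RefSeq promoter (4.51%) and 207 of 7660 genes past the filter other than the regulators (2.70%). The 9 were chosen as genes of the ATF4 and CHOP pathway, so their share is not independent of that choice. These exact 8 letters, counted after the matches had been seen, lay in the promoters of 279 of the 27025 genes (1.03%). The full cyclic AMP response element, TGACGTCA, was found 12 to 5 bases before the start of Ppp1r15a alone among the 9, against 549 of 27025 genes (2.03%) and 301 of the 7660 genes past the filter (3.93%). A TATA box, TATAAA on either strand, was found in Ppp1r15a and Cebpb, where it lay 16 to 21 and 22 to 27 bases inside the annotated gene, and in 15.7% of genes and 8.47% of those past the filter. No match was found in the 9 genes for the C/EBP site TTGCNNAA, present in 12.2% of genes and 10.0% of those past the filter, or for the endoplasmic reticulum stress element, CCAAT and CCACG with 9 bases of any kind between them, present in 0.137% and 0.157%. Both strands were searched. None of the matches in these genes overlapped a match to another motif. A match is a description of letters and was not tested as a binding site, and no match says only that the letters are not in this window.

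Palmitate gave a higher value than oleate for all 9 regulators, and a value at least 2-fold higher for 7: Ddit3, Ppp1r15a, Nupr1, Chac1, Atf4, Atf3 and Cebpg. At least 2-fold higher values were held by 1.65% of the 9410 genes past the filter, and higher values of any size by 30.9%. Lower values were held by 3459 genes and equal values by 3041. At least 1.5-fold higher were 8 of the 9 regulators and 4.57% of genes, and at least 3-fold higher were 5 of the 9 (Ddit3, Ppp1r15a, Nupr1, Chac1 and Atf4) and 0.606% of genes. The median log2 difference of the 9 was 1.61, or 3.05-fold, beside a median of 0 and a standard deviation of 0.38 over the 9410 genes. Against elaidate, palmitate again gave the higher value for all 9, with 5 at least 2-fold higher (Ddit3, Ppp1r15a, Nupr1, Chac1 and Atf3), a limit that 0.978% of genes passed, while 27.9% were higher by any size. Here 3565 genes were lower and 3215 equal. At least 1.5-fold higher were all 9 and 3.18% of genes, and at least 3-fold higher were 4 of the 9 and 0.351% of genes. The median of the 9 was 1.12, beside 0 over all genes. Between elaidate and oleate, 8 of 9 were higher on the elaidate array, as were 31.5% of genes. Of the 9410 genes, 2968 were higher, 2290 lower and 4152 equal, while no regulator had equal values. The share higher at any size is therefore held down by equal values. No regulator was 2-fold higher, a limit passed by 0.106% of genes, or 3-fold higher, which held for 0% of genes. A limit of 1.5-fold was passed by 4, Nupr1, Chac1, Ddit3 and Atf4, and by 0.723% of genes. These comparisons share arrays and are not independent of one another.

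**Figure D1:**
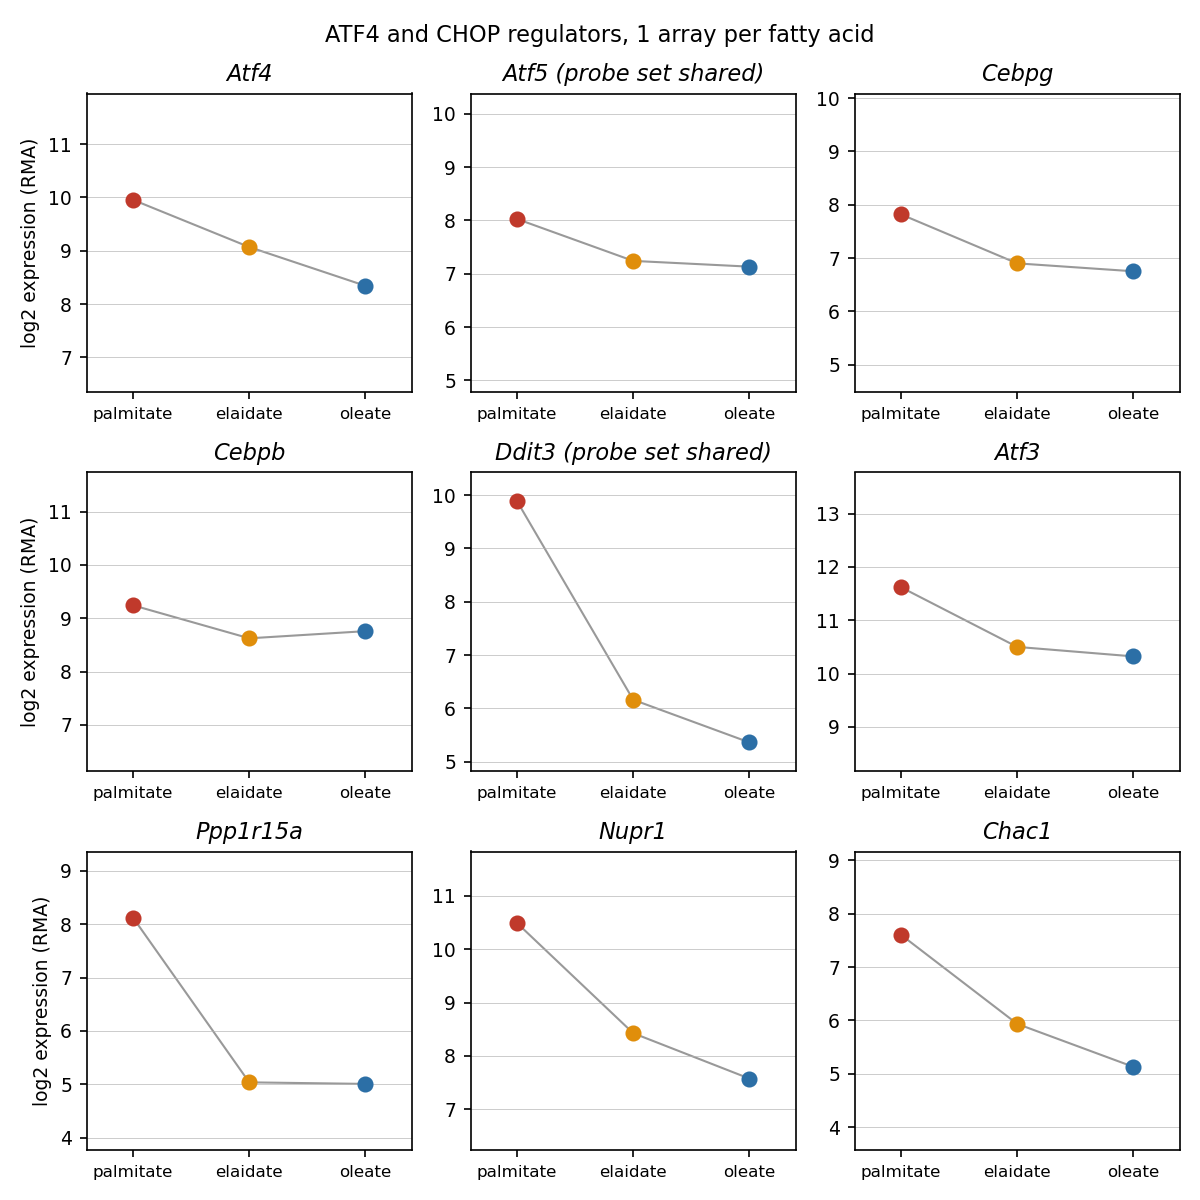
Log2 expression values of the 9 regulators on the palmitate, elaidate and oleate arrays, 1 point for each array, each panel spanning the same number of log2 units. Palmitate holds the highest value in all 9 panels, and elaidate lies above oleate in 8, the exception being Cebpb.

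Atf4, the central activator, had log2 values of 9.95 with palmitate, 9.07 with elaidate and 8.34 with oleate. The 3 values were spread out, with elaidate near the middle: palmitate stood 1.61 above oleate (3.05-fold) and 0.88 above elaidate, and elaidate stood 0.73 above oleate (1.65-fold). Set among the 9410 genes past the filter, Atf4 ranked 52 from the highest for palmitate against oleate and 33 for elaidate against oleate.

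Atf5 encodes a bZIP factor related to ATF4 and, like it, favoured in translation when eIF2alpha is phosphorylated. Its probe set also names Il4i1b, and read 8.03 on the palmitate, 7.24 on the elaidate and 7.13 on the oleate array. Palmitate stood apart, 0.89 above oleate and 0.79 above elaidate, while elaidate and oleate were 0.11 apart. Il4i1b is also named, together with Nup62, by a probe set at 8.88, 8.86 and 8.86 on the palmitate, elaidate and oleate arrays. The difference between palmitate and oleate there was 0.01. The probe set that names Il4i1b with Il4i1 read 3.06 on every array, below the filter, so its difference of 0 carries no weight. Both probe sets name a further gene, and the part of Il4i1b in the 0.89 was not tested.

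Cebpg encodes a short C/EBP protein that lacks an activation domain and binds DNA as a partner of ATF4. It had 7.82 on the palmitate, 6.90 on the elaidate and 6.75 on the oleate array. The palmitate value was 2.09-fold that of oleate, with a log2 difference of 1.07, while elaidate and oleate lay 0.15 apart. Cebpb, a C/EBP activator of macrophage inflammatory genes that also pairs with ATF4 and CHOP, had 9.24 on the palmitate, 8.62 on the elaidate and 8.76 on the oleate array. It was the regulator with the smallest difference between palmitate and oleate, 0.48 (1.40-fold), and the only one of the 9 with elaidate below oleate, by a difference of -0.13.

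Ddit3 encodes CHOP, a bZIP factor linked to cell death under prolonged stress, and its probe set had the largest differences of all in both comparisons with palmitate. It read 9.88 on the palmitate array, against 6.16 on the elaidate and 5.36 on the oleate array. The difference of 4.52 between palmitate and oleate (23.0-fold) and of 3.72 between palmitate and elaidate (13.2-fold) ranked first among all 35556 probe sets. Elaidate stood 0.80 above oleate, or 1.74-fold, a difference that ranked 541 among the probe sets. The probe set also names Mars1, the cytosolic methionyl-tRNA synthetase gene, which lies tail to tail with Ddit3 on the opposite strand and overlaps its end. The probe set that names Mars1 alone had 8.81, 8.66 and 8.54 on the palmitate, elaidate and oleate arrays, with a difference of 0.27 between palmitate and oleate and of 0.13 between elaidate and oleate. Among the genes past the filter, which all have probe sets of their own, the highest difference between palmitate and oleate was 3.72, for Gprc5a, an orphan receptor gene.

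**Figure D2:**
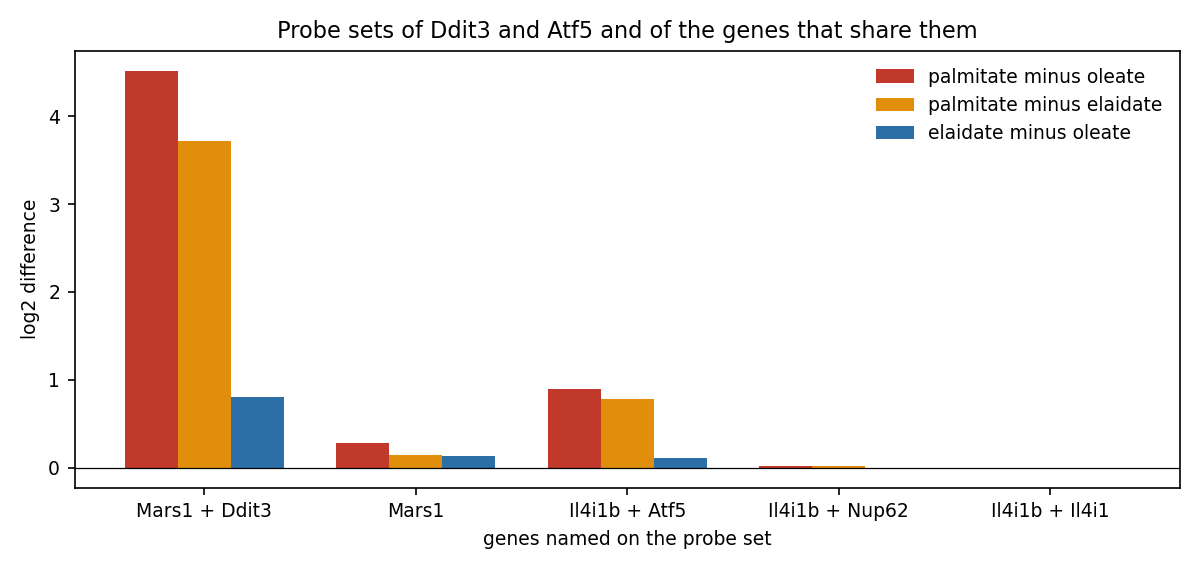
Log2 differences (vertical axis) in the 3 comparisons (colours) for the probe sets of Ddit3 and Atf5 and for the other probe sets that name the genes sharing them. The probe set of Mars1 with Ddit3 reaches 4.52 between palmitate and oleate, while that of Mars1 alone reaches 0.27.

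Atf3, a bZIP factor that is induced by ATF4 and also by inflammatory signals in macrophages, and that often acts as a repressor, had 11.6 on the palmitate, 10.5 on the elaidate and 10.3 on the oleate array. The palmitate value was 2.46-fold that of oleate and 2.17-fold that of elaidate, with log2 differences of 1.30 and 1.12. Elaidate and oleate lay close, 0.18 apart.

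Ppp1r15a, also known as GADD34, encodes the subunit that directs protein phosphatase 1 to eIF2alpha and so reverses the arrest of translation. It had 8.12 with palmitate, 5.04 with elaidate and 5.01 with oleate. Palmitate stood alone: the difference was 3.12 from oleate (8.66-fold) and 3.09 from elaidate (8.49-fold), while elaidate and oleate were 0.03 apart. Set among the genes past the filter, Ppp1r15a ranked 8 from the highest for palmitate against oleate and 2 for palmitate against elaidate. Its paralogue Ppp1r15b, the constitutive form of the subunit, had 6.61, 6.54 and 6.58 on the palmitate, elaidate and oleate arrays, with a difference of 0.02 between palmitate and oleate.

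Nupr1, a small stress-induced chromatin-associated protein, had 10.5 on the palmitate, 8.43 on the elaidate and 7.58 on the oleate array. All 3 values were apart, with differences of 2.91 between palmitate and oleate (7.54-fold), 2.06 between palmitate and elaidate and 0.85 between elaidate and oleate (1.80-fold). The last was the highest of the 9 regulators and ranked 15 from the highest. Chac1, an enzyme that degrades glutathione and is a target of the ATF4 branch, had 7.61 on the palmitate, 5.94 on the elaidate and 5.13 on the oleate array. Its differences were 2.47 between palmitate and oleate (5.56-fold), 1.67 between palmitate and elaidate and 0.81 between elaidate and oleate (1.75-fold). The paralogues had equal deposited values: Chac2, just above the filter, was at 4.23 and Nupr1l, below the filter, at 4.03 on each of the 3. Equal values on all 3 arrays were held by 27.5% of genes past the filter.

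**Figure D3:**
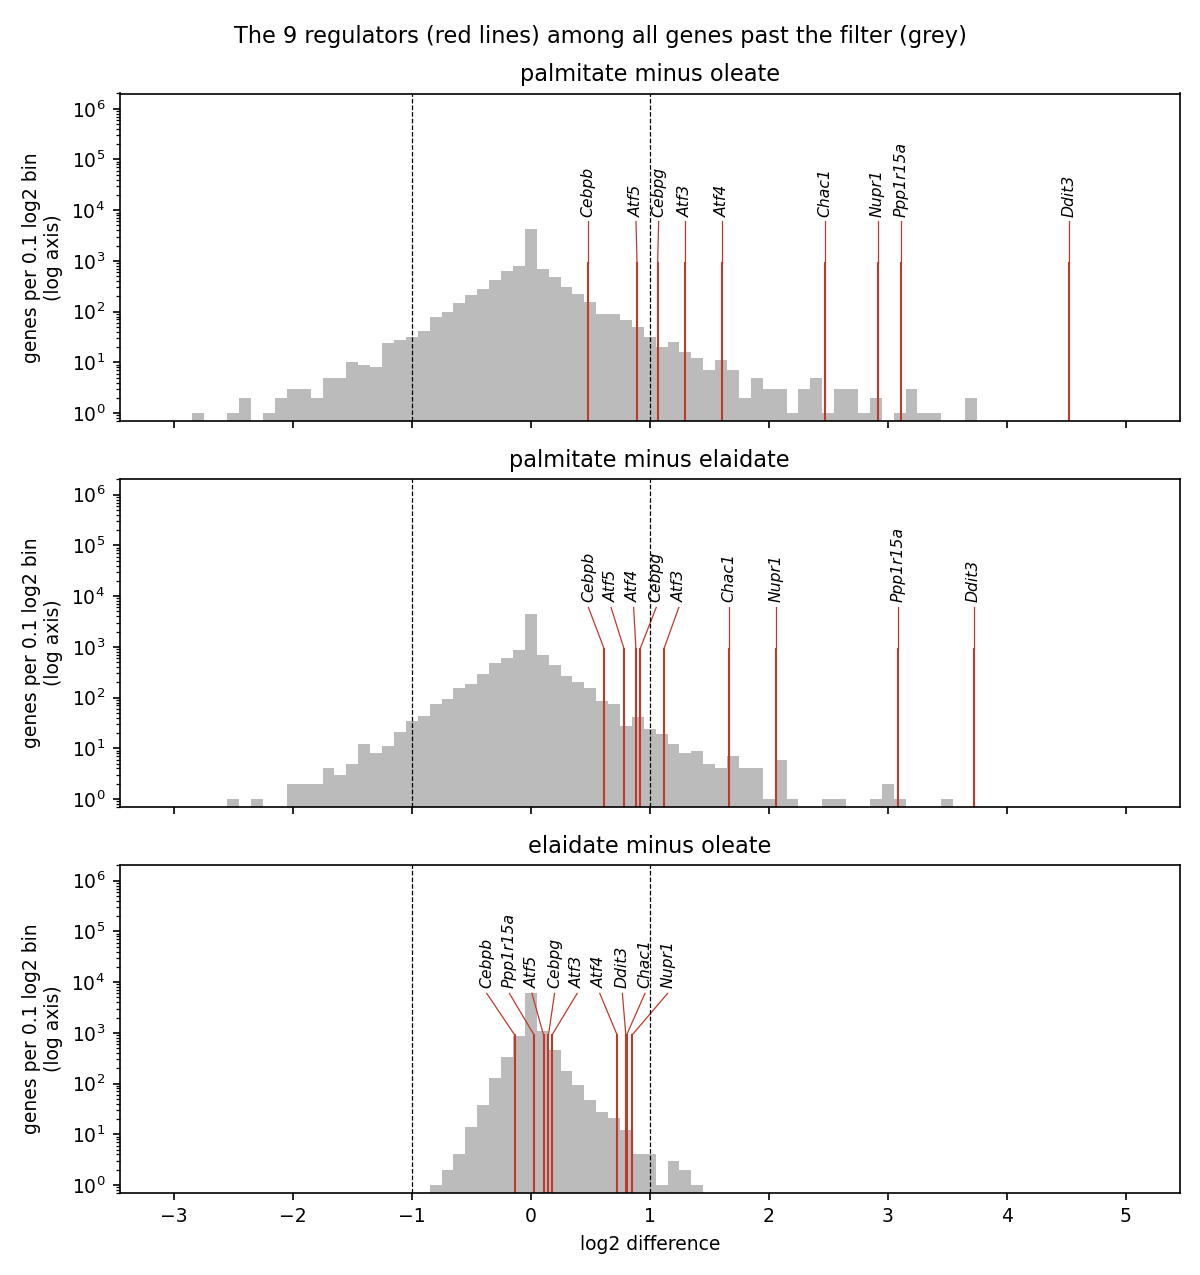
Log2 differences of the 9 regulators (red lines) over the distribution of the 9410 genes past the filter (grey bars, number of genes in each bin on a log axis), in 3 comparisons. Dashed lines mark 2-fold. Ddit3 at 4.52 and 3.72 lies outside the grey distribution in both comparisons with palmitate, and between elaidate and oleate 4 regulators lie between 0.73 and 0.85 while the other 5 lie between -0.13 and 0.18.

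Patterns could be told apart by the elaidate value, as a description of 3 arrays. Ddit3, Nupr1, Chac1 and Atf4 had elaidate 0.73 to 0.85 above oleate, past the 1.5-fold limit that 0.723% of genes passed. Atf3, Cebpg, Atf5, Ppp1r15a and Cebpb had elaidate within 0.18 of oleate, and of these Ppp1r15a was 8.49-fold higher with palmitate than with elaidate. The order palmitate above elaidate above oleate was held by 8 of the 9 regulators and by 13.1% of genes past the filter. Genes with equal values on a pair of arrays could not hold this order, and no regulator had such values. Between the cis and the trans isomer, which differ in the geometry of the double bond, the 9 differences thus ran from -0.13 to 0.85, without replicates to give an interval. Between the saturated and the cis fatty acid, which differ in the double bond and in chain length, they ran from 0.48 to 4.52.

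Genes whose values were most like each regulator were found by the distance in 2 differences, elaidate minus oleate and palmitate minus oleate, over the 3 arrays. Atf4 was closest to Serpinb9, at a distance of 0.060 log2 units, and Arl14ep, at 0.076. Cebpg was closest to Zbtb21 at 0.038 and Osbpl2 at 0.043, and Atf3 to Casp4 at 0.040 and Tgif1 at 0.062. Chac1 was closest to Glrp1 at 0.053 and Cd274 at 0.15, and Nupr1 to Cth at 0.22 and Rgs1 at 0.26. Ppp1r15a had Cxcl2 at 0.24 and Ndrg1 at 0.39 as the nearest genes. Ddit3 had no near gene: Trib3, the nearest, lay 0.85 away and Gprc5a 0.98. This was fixed by its difference of 4.52 between palmitate and oleate, above the highest candidate at 3.72. Few genes had large differences (0.606% at least 3-fold higher), so distances cannot be compared between regulators.

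The genes that act upstream of ATF4 had medians of 0 in all 3 comparisons. Of 20 measured genes of the eIF2alpha kinases, eIF2, its exchange factor eIF2B and their regulators, palmitate stood above oleate for 8 and below it for 6, and 6 did not differ, so that the median was 0. Palmitate stood above oleate for 30.9% of all genes past the filter. Eif2s1, the gene of eIF2alpha itself, was listed but had no probe set of its own and was not among the 20. Among the 4 kinases, Eif2ak3 (PERK, which senses endoplasmic reticulum stress) at 7.62 and Eif2ak4 (GCN2, which senses amino acid lack) at 6.11 had the same deposited value on all 3 arrays. So did 27.5% of genes past the filter, and equal deposited values do not show that a gene was unchanged. Eif2ak1 (HRI, the heme-regulated kinase) had 8.39, 8.48 and 8.52 on the palmitate, elaidate and oleate arrays, and Eif2ak2 (PKR, the kinase activated by double-stranded RNA) had 8.10, 8.42 and 8.24. The exception was Impact, an inhibitor of GCN2 activation, with 8.80 on the palmitate, 7.83 on the elaidate and 7.57 on the oleate array and a difference of 1.24 between palmitate and oleate. Eif2s2, a subunit of eIF2, followed at 0.56.

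Downstream, 30 of 36 measured other targets of ATF4 and CHOP passed the filter, and all 30 stood higher with palmitate than with oleate, 17 of them at least 2-fold. Their median was 1.22, beside 0 over all genes, and the 6 below the filter differed by between -0.11 and 0. Among all genes past the filter, 30.9% stood higher and 1.65% at least 2-fold higher. The filter uses the mean of the arrays, palmitate included. Vegfa, with 4.26 on the palmitate and 4.13 on the elaidate and oleate arrays, passed it only through its palmitate value, so its direction carries no weight. The highest were Trib3, a pseudokinase that restrains the pathway, at 3.68, Gadd45a, a growth arrest gene, at 3.36, and Slc1a4, a transporter of neutral amino acids, at 3.29. Between palmitate and elaidate the same 30 were all higher, 13 at least 2-fold, with a median of 0.99. The shares of all genes past the filter were 27.9% and 0.978%. Between elaidate and oleate 25 stood higher and 2 lower, 3 did not differ, and the median was 0.24. Of all genes past the filter, 31.5% stood higher on the elaidate array. Slc1a4, at 1.21, was the 1 gene of the list past 2-fold there, a limit that 0.106% of genes passed. The TGATGNAA element lay in 10 of the 30 genes of this list that have a RefSeq promoter (33.3%), past the filter or not, among them Trib3, Slc1a4, Slc7a11, Asns and Herpud1. Of the listed genes past the filter, 6 of 22 held the element (27.3%). It lay in 4.51% of the 27025 genes with a promoter and in 2.70% of the 7660 past the filter other than the regulators. The list was drawn up from textbook targets, some of them known for this element. It was chosen with earlier results of these data known, so its counts are not independent support. Of the genes at least 2-fold higher with palmitate than with oleate that have a promoter there, leaving out the 9 regulators, 16 of 114 held it (14.0%), and without the genes of this list 11 of 103 (10.7%).

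**Figure D4:**
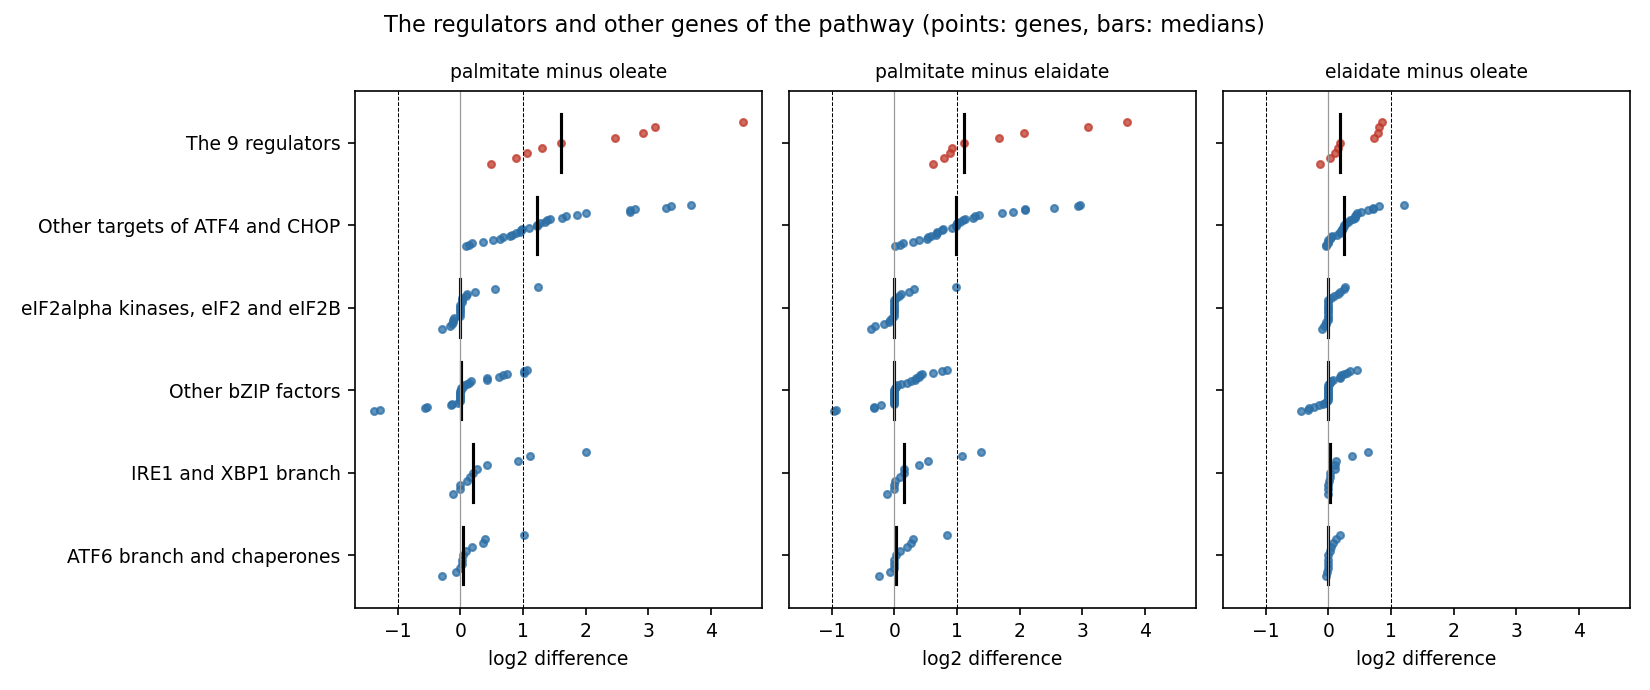
Log2 differences of the 9 regulators (red) and of 5 lists of other genes of the pathway past the filter (blue), 1 point for each gene with a black bar at the median, in 3 comparisons on a common scale. Dashed lines mark 2-fold. The regulators and the other targets of ATF4 and CHOP have medians of 1.61 and 1.22 between palmitate and oleate, while the other 4 lists have medians between 0 and 0.20.

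Other bZIP factors went both ways between palmitate and oleate. Among the 30 past the filter, 15 stood higher and 7 lower while 8 did not differ, and the median was 0.00. Over all genes past the filter, 30.9% stood higher, 1.65% at least 2-fold higher and 1.22% at least 2-fold lower. Nfe2l1, which governs proteasome genes, at 1.07, the stress sensor Atf6 at 1.02 and the repressor Nfil3 at 1.02 were at least 2-fold higher. Maf, a factor of macrophage differentiation, at -1.39 and Fos, of the AP-1 complex, at -1.28 were at least 2-fold lower. Of the other C/EBP genes, Cebpa was at -0.13, and Cebpd and Cebpe were equal on all 3 arrays, as were 27.5% of genes past the filter.

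The other branches of the endoplasmic reticulum stress response had smaller medians than the regulators. Over all genes past the filter, 30.9% stood higher with palmitate than with oleate and 1.65% at least 2-fold higher. In the IRE1 and XBP1 branch 8 of 11 genes stood higher with palmitate than with oleate, 1 stood lower and 2 did not differ (median 0.20). The co-chaperone Dnajb9 at 2.00 and the sensor Ern1 at 1.10 were past 2-fold. Of the 11 genes of ATF6 and the chaperones, 8 stood higher, 2 stood lower and 1 did not differ (median 0.04). Apart from Atf6 none of that list reached 2-fold: the main chaperone Hspa5 was at 0.38, Hyou1 at 0.03 and Sdf2l1 at -0.29. The endoplasmic reticulum stress element was found in 12 of the 7660 other genes past the filter (0.157%). These were Hspa5, Hsp90b1, Calr, Canx, Creld2, Syvn1, Pdia6, Dnajc3, Alg12, Ero1b, Hnrnpa3 and Pan2. At so low a share, its absence from the windows of the 9 regulators carries no weight.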

How the data were processed

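The authors deposited 1 log2 expression value for each probe set, from biotin-labelled total RNA on whole-transcript Affymetrix arrays per the labels' protocols. RMA is the tool named in the submitters' processing notes. Its version, and the build of the probe sets, are not given in the sources used here. The number of arrays limits the precision. Values were used as deposited and differences taken as palmitate minus oleate, palmitate minus elaidate and elaidate minus oleate. Groups come from the labelled fatty acid.

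Probe sets were named from the platform annotation, which can be old: of 35556, 21218 had 1 symbol, 1881 several and 12457 none there, and 21185 of the first kind matched RefSeq by gene identifier. Probe sets of a gene were averaged. Genes whose mean over 3 arrays was at least the median of all 18820 (4.14) passed the filter, which left 9410. Values within 1e-06 were called equal, which held on all 3 arrays for 27.5% of these genes. Equal deposited values do not show that a gene was unchanged. No regulator had equal values on any pair of arrays.

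With 1 array per fatty acid no test was made; counts past 2-fold are set beside those of all genes. The 9 regulators, the gene lists, the motifs and the rule for named genes were chosen with earlier results of these data known. All 9 regulators are named, the 2 nearest genes of each regulator past 2-fold between palmitate and oleate, and of each list genes past 2-fold or furthest from 0. Predicted, microRNA, small nucleolar RNA and olfactory or vomeronasal receptor symbols were not candidates for nearest genes. Eif2s2, Cebpa, Cebpd, Cebpe, Hyou1 and Hspa5 were added after their values were seen. Promoters were matched by symbol for all 9. Alternatives were other filters, fold limits and probe set rules, centring of arrays, and cyclic loess (limma 3.58.1, R 4.3.3, span 0.7, 3 iterations). The counting steps were tested on simulated data. Calculations used Python 3.11.15, numpy 2.4.6 and pandas 2.3.3.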

Additional observations from a re-analysis of the deposited data

How the results depend on the processing

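Centring the arrays and cyclic loess left all 27 differences of the regulators within 0.1 log2 units, with shifts from -0.04 to 0.00. Neither changed a count of regulators past 2-fold. Each regulator had only 1 probe set. Taking the probe set with the highest mean, or adding probe sets naming several genes, therefore could not change the values of the regulators. At a limit of 1.5-fold, 8 regulators were past it between palmitate and oleate, 9 between palmitate and elaidate and 4 between elaidate and oleate. At 3-fold the counts were 5, 4 and 0. Without Ddit3 and Atf5, whose probe sets are shared, the counts past 2-fold were 6, 4 and 0 of 7, an alternative chosen after seeing the data. The share of all genes past 2-fold in either direction, 2.87%, 1.85% and 0.106% in the same order of comparisons, was 1.45%, 0.946% and 0.0584% without the filter, and 0.170% between elaidate and oleate with the filter at the 75th percentile. Without the filter the median of the other targets of ATF4 and CHOP was 0.98 between palmitate and oleate and 0.78 between palmitate and elaidate. No paired analysis was possible because each fatty acid has 1 array.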
